A study of Mus musculus with 2 samples.

Results

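The genes for 9 receptors of blood cell growth factors and related cytokines were examined: Csf1r, Csf2ra, Csf2rb, Csf3r, Il3ra, Epor, Il7r, Il6ra and Il6st. They were chosen by name, as the 12 probes whose gene name on the array was 1 of these symbols, among 39429 probes naming 30165 genes. All 9 were measured, meaning well above background on both arrays, among 16996 such genes. RNA came from mononuclear cells flushed from the femurs of C57/Bl6J mice, which were 2 to 4 months old, with medium holding 2% FBS (bovine serum). At day 11, 1 sample had been given the herbal drug ninjin'yoeito (NYT) and 1 had no treatment (negative control). The sources used here give neither the dose nor the number of animals behind each sample. There was 1 array per group, so no difference below has a replicate check or a p-value.

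Growth factor receptors decide which blood cells survive, divide and mature in marrow. Csf1r, the receptor for M-CSF and IL-34 on monocytes and macrophages, is itself a tyrosine kinase. The other 8 genes encode type I cytokine receptor chains, which have no kinase of their own and signal through bound JAK kinases to STAT transcription factors. Csf2ra binds GM-CSF and Il3ra binds IL-3, and both signal through the common beta chain Csf2rb. Csf3r (G-CSF) and Epor (erythropoietin) work as pairs of identical chains and are known from neutrophil and red cell formation. Il7r, needed for lymphocyte development, pairs with the common gamma chain Il2rg. Il6ra binds IL-6 and signals through Il6st, known as gp130, which many cytokines share.

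What a receptor probe can measure depends on its letters, so the stretches that matter are shown first. The single Csf3r probe (chr4:125721478-125721537, mm9, plus strand) shared runs of 15 bases with 15 probes of other names, a number reached by 1.42% of the 39429 probes. The shared part was bases 23 to 60 of 60. Probe bases 15 to 44 are given, with the shared part in capitals:
Csf3r: aaaaattaTGCTGGGTGTGGTGGTGCATGC
As background, runs of this kind belong to the B1 family of short repeats in mouse RNA. Of the 15 probes, 11 were measured, with log2 differences between -0.86 and 1.57. Their median was -0.30, with 0 of them at least 2-fold lower and 2 at least 2-fold higher. Whether the Csf3r value below holds signal of other transcripts was not tested. The other 11 receptor probes each shared such a run with at most 2 probes of other names.

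The common beta chain has a near copy in mice, Csf2rb2, which serves IL-3 alone. The brighter probes of both genes overlapped over 30 bases with 3 mismatches, in capitals:
Csf2rb: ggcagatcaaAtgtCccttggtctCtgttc
Csf2rb2: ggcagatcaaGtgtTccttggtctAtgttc
The separate values of these genes by their brighter probes are thus uncertain. By the other probe of each, the log2 difference was 0.84 for Csf2rb and 0.01 for Csf2rb2. The first stretch lies at chr15:78181197-78181226 on the plus strand and the second at chr15:78113145-78113174 on the minus strand (mm9).

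Promoters are shown for the members with the largest difference in each direction, Epor (lower) and Il7r (higher), as the 250 bases before the transcript start (RefSeq, GRCm38.p6). Capitals mark matches, on either strand, to 5 short motifs. The letters AGATAA are those bound by GATA factors of the red cell and mast cell lineages. The letters GAGGAA are those bound by PU.1, a factor of macrophages and B cells. TTCNNNGAA is the site of STATs, the factors that cytokine receptors switch on. The letters ACCACA are those bound by RUNX factors of blood stem cells. CCACACCC is the site of erythroid Krüppel-like factors.
Epor: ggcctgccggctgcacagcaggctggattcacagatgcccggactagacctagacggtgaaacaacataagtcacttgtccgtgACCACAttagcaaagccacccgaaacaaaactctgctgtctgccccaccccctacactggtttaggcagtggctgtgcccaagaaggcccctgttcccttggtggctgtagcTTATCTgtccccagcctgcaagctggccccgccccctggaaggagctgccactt
Il7r: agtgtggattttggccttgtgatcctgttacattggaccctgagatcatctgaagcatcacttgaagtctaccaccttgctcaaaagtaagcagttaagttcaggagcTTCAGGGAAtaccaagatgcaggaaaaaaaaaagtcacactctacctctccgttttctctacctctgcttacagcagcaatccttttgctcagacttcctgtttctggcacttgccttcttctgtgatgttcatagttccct
The Epor window (chr9:21963577-21963826, minus strand) held the GATA letters in reverse, starting at -54, and the RUNX letters at -166. The Il7r window (chr15:9529877-9530126, minus strand) held the STAT letters at -142. Of the 7 members matched in the table (Csf1r and Csf2rb were not), 2 held the GATA letters, against 9.99% of all 32851 promoters. The PU.1 letters were in 3 of 7 (23.3% of all), the STAT letters in 1 (7.02%), the RUNX letters in 1 (14.0%) and the CCACACCC letters in 0 (3.20%). No matches overlapped, and a match is a description of letters, not of binding.

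Values are spot intensities. Each difference is the log2 intensity on the NYT array minus that on the control array, both scaled to their 75th percentile. That percentile was 728 on the NYT array and 1475 on the control array, so scaling adds 1.02 to every log2 difference. Over the 16996 measured genes the median was 0.29 with this scaling and -0.73 with none. Each receptor probe was printed once, and its error is that of the scanner software, about 0.20 for a difference. It covers the spot alone, neither cultures nor hybridisations. In RNA from mixed cells, fewer cells of a type and less RNA per cell cannot be told apart.

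The receptors differed in size and direction. Of 9 genes, Epor and Il6ra, 2 in all, passed 2-fold on the lower side, against 11.0% of all measured genes, and Il7r, 1 gene, passed it on the higher side, against 11.2%. The other 6 were under 2-fold, and the median was 0.05, or 0.18 without Csf3r. Without scaling, 4 were at least 2-fold lower (36.4% of all genes), none was 2-fold higher (1.24%), and Il7r was the 1 member brighter on the NYT array. From lowest to highest difference the order was Epor, Il6ra, Csf1r, Csf3r, Csf2ra, Il3ra, Csf2rb, Il6st and Il7r. Among neighbours in this order, the gaps below Il6ra (2.26) and below Il7r (0.65) exceeded the 0.57 that spot error allows, and the other gaps, 0.12 to 0.49, did not.

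**Figure D1:**
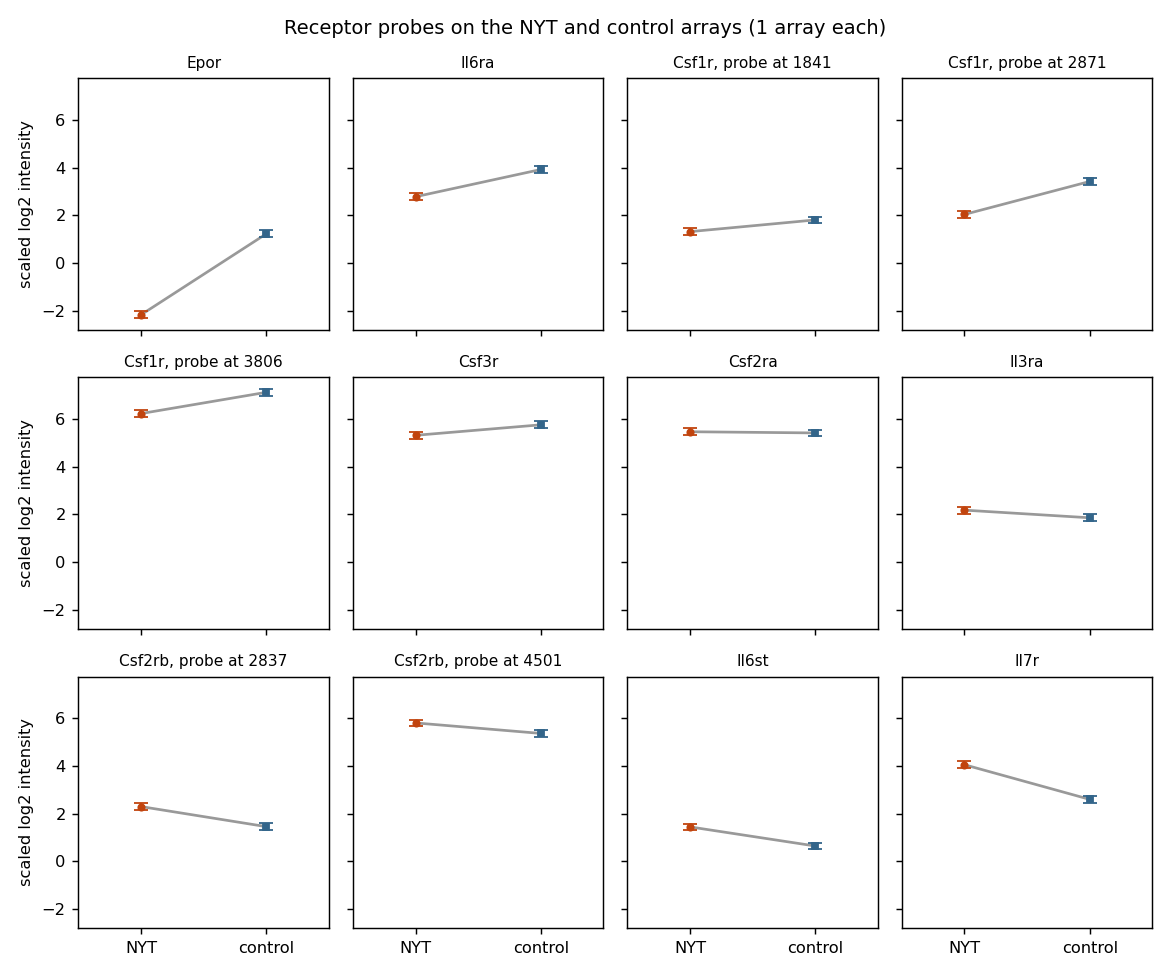
Scaled log2 intensity (vertical axis, 0 is the array's 75th percentile) of the 12 receptor probes on the NYT array (circle) and the control array (square), 1 array each, with the software's spot error as bars. Epor has the steepest difference (-3.40) and Il7r is the probe most above its control value (1.45); heights of different probes cannot be compared.

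**Figure D2:**
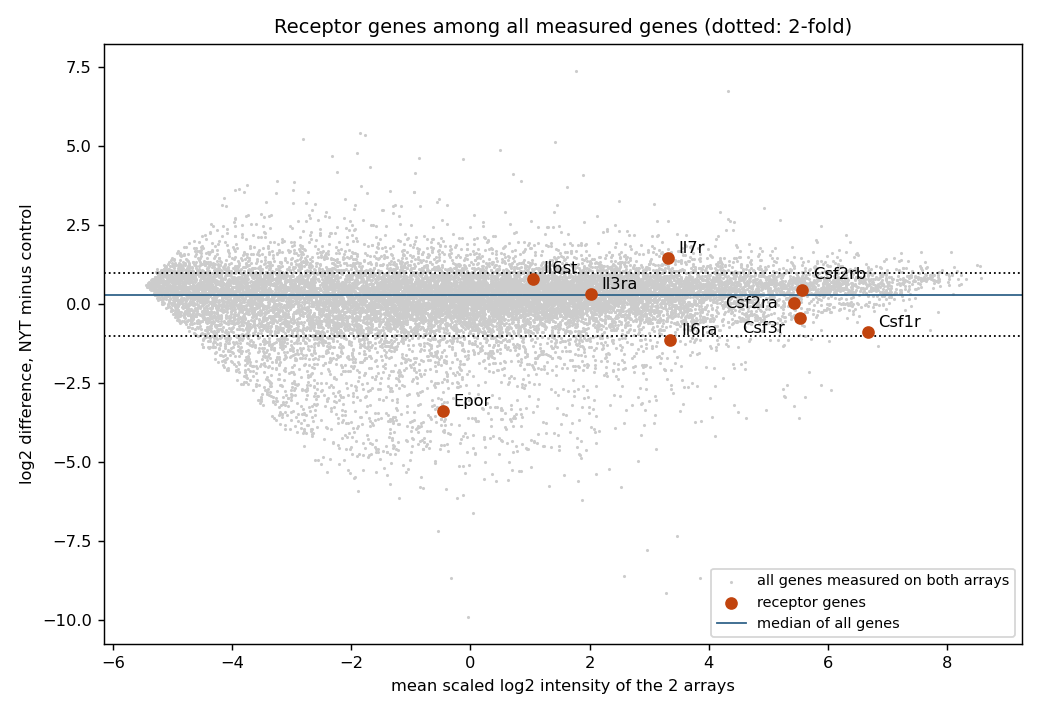
Log2 difference, NYT minus control, against the mean scaled log2 intensity of the arrays, for 16996 genes (grey) and the 9 receptors (labelled). Epor lies at -3.40 and Il7r at 1.45, with 6 receptors between the dotted 2-fold lines and the median of all genes at 0.29.

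Csf1r was lower by every probe, though by unequal amounts. Its brightest probe, which starts at base 3806 of the transcript, read 54387 on the NYT array, against 204061 on the control array, a scaled difference of -0.89. The probe at base 2871 read 3002 on the NYT array, against 15799 on the control array (-1.38), and that at base 1841 read 1823, against 5173 on the control array (-0.49). The probes thus differed by up to 0.89 between themselves, beyond the 0.55 of spot error, and 1 of 3 passed 2-fold. With quantile normalization the gene differed by -1.50 and after loess by -1.51, past 2-fold in both.

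The markers of the cells that carry Csf1r went both ways. Of 17 measured macrophage and osteoclast markers, 7 were at least 2-fold lower and 4 higher, with a median of -0.78. That is 41.2% lower and 23.5% higher, against 11.0% and 11.2% of all measured genes. Ccr2 (-4.33), a chemokine receptor of classical monocytes, and Cx3cr1 (-4.02), of patrolling monocytes, were lower. Dcstamp (-2.52), needed for fusion of osteoclasts, was lower, and the osteoclast protease Ctsk (2.29) was higher. The rest past 2-fold were named after their values were seen. Acp5 (-2.06), Mrc1 (-1.97), Fcgr1 (-1.70) and Adgre1 (-1.01) were lower, and Gpnmb (1.65), Trem2 (1.63) and Cd68 (1.18) were higher. Calcr, the calcitonin receptor, was detected on the NYT array alone, at least 2.11-fold higher as scaled. It was dim there, at 27, and the 1.02 that scaling adds to a log2 difference makes up most of that bound. Of the ligands of Csf1r, Csf1 read 2588 on the NYT array and 8273 on the control array (-0.66), and Il34 was detected on the control array alone, at least 2.33-fold lower on NYT.

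Both chains of the GM-CSF receptor were under 2-fold apart between the arrays, with and without scaling. Csf2ra read 31975 on the NYT array, against 62546 on the control array, which is 0.05 as scaled, -0.97 without scaling and, past 2-fold, -1.13 with spike-in scaling. The probe lies at chr19:61300336-61300395, minus strand (mm9). Csf2rb read 40349, against 60222 on the control array, by its brighter probe (0.44), and 3568, against 4034 on the control array, by its other (0.84). Both Csf2rb values lay above 0 as scaled, but the gene stood at -0.02 with quantile normalization, -0.10 after loess and -0.58 without scaling. The near copy Csf2rb2 read 30576, against 47139 on the control array (0.39), and 7740, against 15604 (0.01).

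Il3ra, the binding chain for IL-3, was under 2-fold too. It read 3290 on the NYT array, against 5347 on the control array, a difference of 0.32 as scaled and -0.70 without scaling, and 51.9% of measured genes lay below it. Its probe lies at chr14:15187898-15187957, plus strand (mm9). The difference of Il3ra minus that of Csf2rb was -0.12, and minus that of Csf2rb2 -0.08, both within the 0.29 of spot error. Over the alternatives these gaps ran from -0.52 to 0.19 and from -0.13 to 0.31. Both thus changed sign. Each passed 0.29 at 1 end, but neither reached the 0.57 given above as what spot error allows for a gap. Mast cells, basophils and eosinophils, which respond to IL-3, had 11 of 12 measured markers at least 2-fold lower (median -4.75). That is 91.7%, against 11.0% of all measured genes, and none was 2-fold higher, against 11.2%. Among those lower were the proteases Cpa3 (-7.18) and Mcpt8 (-6.63) and Hdc (-5.59), which makes histamine. Fcer1a, a chain of the IgE receptor, was lower on NYT by 108-fold or more. The ligands were dim: Csf2 was detected on the control array alone, at least 6.41-fold lower on NYT, and Il3 likewise, at least 1.05-fold.

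Csf3r, lower by less than 2-fold, lay within the range of the neutrophil genes measured beside it. Its probe read 28878 on the NYT array, against 79456 on the control array, a difference of -0.44. Of 15 neutrophil markers 13 were at least 2-fold lower (86.7%, against 11.0% of all measured genes) and none higher (11.2% of all). The median was -3.20 and the range -5.30 to -0.25. Stfa1 (-5.30), a protease inhibitor, Cxcr2 (-4.99), a chemokine receptor of mature neutrophils, Retnlg (-4.96) and Mmp9 (-4.58), a gelatinase, were the lowest. The calgranulin S100a9 (-0.25) and the neutrophil elastase Elane (-0.37), named after their values were seen, differed less than Csf3r did. The part of the repeat letters shown above in the Csf3r value was not tested, and no other Csf3r probe was on the array. Its ligand Csf3 was at background on both arrays.

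Epor had the largest difference among the members. It read 163 on the NYT array and 3464 on the control array, 10.52-fold lower as scaled (-3.40), and 2.2% of measured genes lay below it. Under every alternative run it stayed at least 2-fold lower, between -4.57 with spike-in scaling and -2.98 with normexp background correction. The probe lies at chr9:21763422-21763481, minus strand (mm9).

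Genes of the red cell lineage differed in both directions beside Epor. Of 7 measured erythroid markers, 3 were at least 2-fold lower (42.9%, against 11.0% of all measured genes) and 1 higher (14.3%, against 11.2%), with a median of -0.21. Aqp1, a water channel (-4.74), Gata1 (-3.86) and Hba-a1, an alpha globin (-3.18), were lower, and Slc4a1, the band 3 anion exchanger, was dim on both arrays and higher (1.30). The defining markers Alas2, Epb42, Klf1, Ank1 and Rhag were not well above background on either array. Megakaryocytes, which share Gata1 with red cells, had all 10 measured markers at least 2-fold lower (median -4.28), with Selp at -4.68 and Itga2b at -4.65. Kit, the stem cell factor receptor, stood at -3.33. The ligands Epo and Thpo were not well above background on either array.

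Il7r was the member highest on NYT relative to control. It read 11987 on the NYT array and 8880 on the control array, 2.73-fold higher as scaled (1.45), with 96.1% of measured genes below it. The direction held under every alternative run, but the size fell under 2-fold without scaling (0.43) and with spike-in scaling (0.27). Its probe lies at chr15:9435976-9436035, minus strand (mm9). The partner chain Il2rg read 2606, against 7141 on the control array (-0.44). Il7r thus stood 1.89 above Il2rg on the log2 scale, a gap that no constant scaling can change, with a spot error of 0.29 and a range of 1.65 to 1.89 over the alternatives.

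No measured T, NK or B cell marker was at least 2-fold higher beside Il7r. Of 10 measured T and NK cell markers, 8 were at least 2-fold lower (80.0%, against 11.0% of all measured genes) and none higher (median -3.19). A further 7 were detected on the control array alone, each with a bound of at least 2-fold. Over all genes, 2409 were detected on 1 array alone, whether NYT or control. Of these, 731 (30.3%) were on the control array with a bound of at least 2-fold. The share among genes on the control array alone was not counted. Il2rb (-5.42), Cd3d (-4.93) and Zap70 (-4.58) were among the lowest, and Klrd1 and Gzmb were at least 103-fold and 48.9-fold lower. Of 11 measured B cell markers, 3 were at least 2-fold lower (27.3%, against 11.0% of all measured genes). They were Vpreb3 (-4.34), Ebf1 (-1.05) and Cr2 (-1.02). The median was -0.28, and Igll1 was at least 11.2-fold lower. The recombinase genes Rag1 and Rag2, active in IL-7 dependent precursors, were not well above background on either array. Of 13 measured innate lymphoid and dendritic markers, 8 were at least 2-fold lower (61.5%) and 1 higher (7.7%), with a median of -1.44. Of all measured genes, 11.0% were lower and 11.2% higher. Thy1 stood at -5.10, Il1rl1 at -4.69, Gata3 at -4.09 and H2-Aa at -3.82. Il17rb and Cd209a were at least 6.83-fold and 5.69-fold lower. The 1 higher, named after its value was seen, was Id2 (1.16 as scaled, 0.14 without scaling). The ligands Il7 and Tslp were not well above background on either array.

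The chains of the IL-6 receptor went opposite ways as scaled. Il6ra read 5014 on the NYT array and 22320 on the control array, 2.20-fold lower (-1.14). Il6st read 1981 on the NYT array and 2301 on the control array, 1.74-fold higher as scaled (0.80), but its difference was -0.22 unscaled and -0.38 when scaled to the spike-ins. Il6ra stood 3.83-fold below Il6st in their difference (-1.94), which constant scaling cannot change, with a spot error of 0.29 and a range of -2.15 to -1.94 over the alternatives. The probes lie at chr3:89674054-89674113, minus strand, and chr13:113296586-113296645, plus strand (mm9). Il6, the ligand, read 8 on the NYT array, not well above background, and 783 on the control array, at least 20.2-fold lower on NYT.

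**Figure D3:**
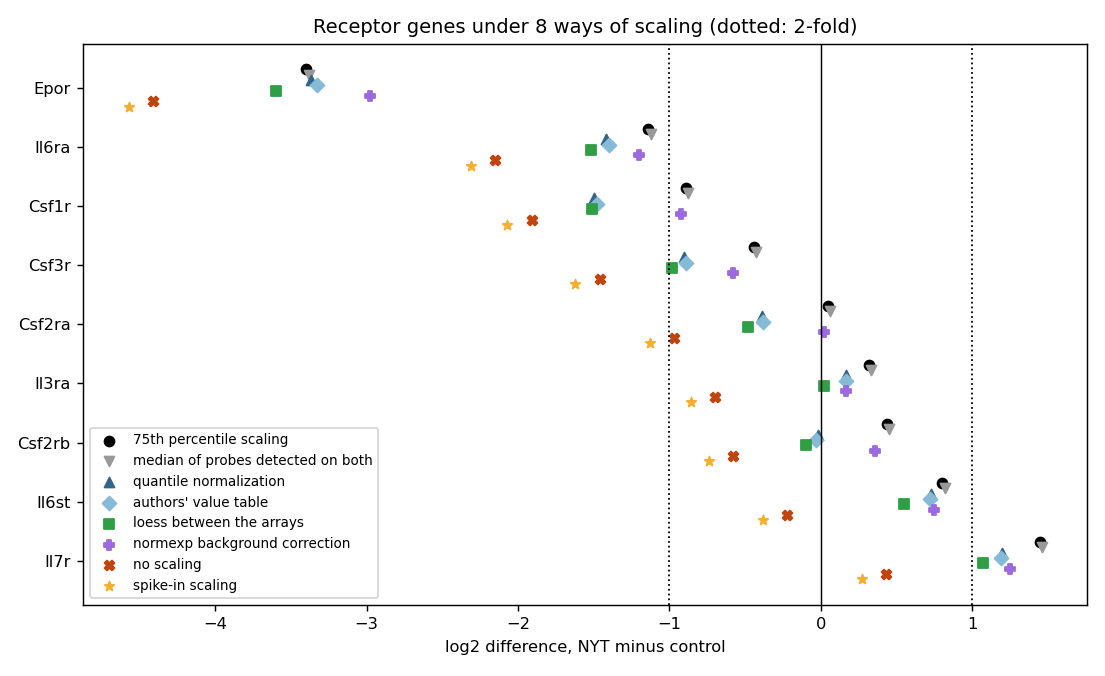
Log2 difference, NYT minus control, of each receptor under 8 ways of scaling or background correction, with dotted lines at 2-fold. Epor and Il6ra stay left of the lower line and Il7r right of 0 in all 8, while Csf2ra, Csf2rb, Il3ra and Il6st cross 0.

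Among 18 listed ligands of these and related receptors, 7 were measured, 3 of them at least 2-fold lower and none higher (median -0.80). The share lower was 42.9%, against 11.0% of all measured genes, of which 11.2% were higher. Those lower were Osm (-1.77), oncostatin M, Flt3l (-1.25), the Flt3 ligand, and Clcf1 (-1.18), a gp130 cytokine. Lif stood at -0.80, Cntf at -0.71 and Kitl at 0.60. Il11 was detected on the control array alone with no bound above 1, and Il5 was at background on both. Among 27 other measured haematopoietic and cytokine receptors, 11 were at least 2-fold lower and 3 higher (median -0.14). That is 40.7% lower, against 11.0% of all measured genes, and 11.1% higher, close to the 11.2% of all. Il2rb (-5.42) and Il1rl1 (-4.69), the IL-33 receptor, were the lowest. Flt3 stood at 0.50 as scaled and -0.52 without scaling, by a dim probe (108 on the NYT array, 155 on the control array). Another Flt3 probe, detected on the control array alone, read 16 on the NYT array and 47 on the control array. Il9r, dim at 40 on the NYT array and at 26, not well above background, on the control array, was at least 3.08-fold higher as scaled. Ghr, the growth hormone receptor, was at least 2.13-fold lower on NYT.

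Signalling genes downstream of the receptors went both ways. Of 19 measured JAKs, STATs and adaptors, 3 were at least 2-fold lower, among them Stat4 (-2.05) and Jak2 (-1.21), the kinase bound by Epor and Csf2rb, and 1 was higher, the adaptor Gab2 (1.32), with a median of -0.53. That is 15.8% lower and 5.3% higher, against 11.0% and 11.2% of all measured genes. Of 25 measured induced targets and negative regulators, 6 were lower (24.0%) and 2 higher (8.0%), with a median of -0.15. The SOCS family of inhibitors was split as scaled. Cish, an inhibitor induced by STAT5, read 178 on the NYT array and 2818 on the control array (-2.97). Socs1 read 203 on the NYT array and 2808 on the control array (-2.77), and Socs3, which binds gp130, read 636 on the NYT array and 7479 on the control array (-2.54). Socs2 was detected on the control array alone, at least 10.4-fold lower on NYT, and Id1 stood at -2.46. The other genes in this list, named after their values were seen, also differed in direction as scaled. Socs4 stood at 1.01 as scaled (-0.01 without scaling), Socs6 at 0.91, Socs7 at 0.70 and Socs5 at -0.25. The cyclin Ccnd2 stood at -1.31 and the cyclin Ccnd1 at 1.01 (-0.01 without scaling). Pim1, a survival kinase, stood at -0.15, and Bcl2l1, a survival factor, at 0.89 by its brightest probe and 1.14 by another (-0.12 without scaling by the brightest).

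Transcription factors known to act on these receptor genes had 8 of 17 at least 2-fold lower and none higher (median -0.84). The share lower was 47.1%, against 11.0% of all measured genes, of which 11.2% were higher. Gata2 (-5.18), Gata3 (-4.09), Gata1 (-3.86) and Cebpe (-3.26), a neutrophil factor, were the lowest. Spi1, which encodes PU.1 and acts on Csf1r and Il7r, stood at 0.20 and Cebpa at 0.19, both named after their values were seen. Stromal and endothelial markers, the other cells a marrow culture can hold, had 6 of 10 lower and 2 higher (median -2.03), with Col1a1 at -5.33 and Col1a2 at -4.39. Those higher, named after their values were seen, were Fstl1 at 1.64 and Lepr, a cytokine receptor of the same type as the members, at 1.35. Without scaling these stood at 0.62 and 0.34. The part of cell make-up in any receptor's difference was not tested.

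**Figure D4:**
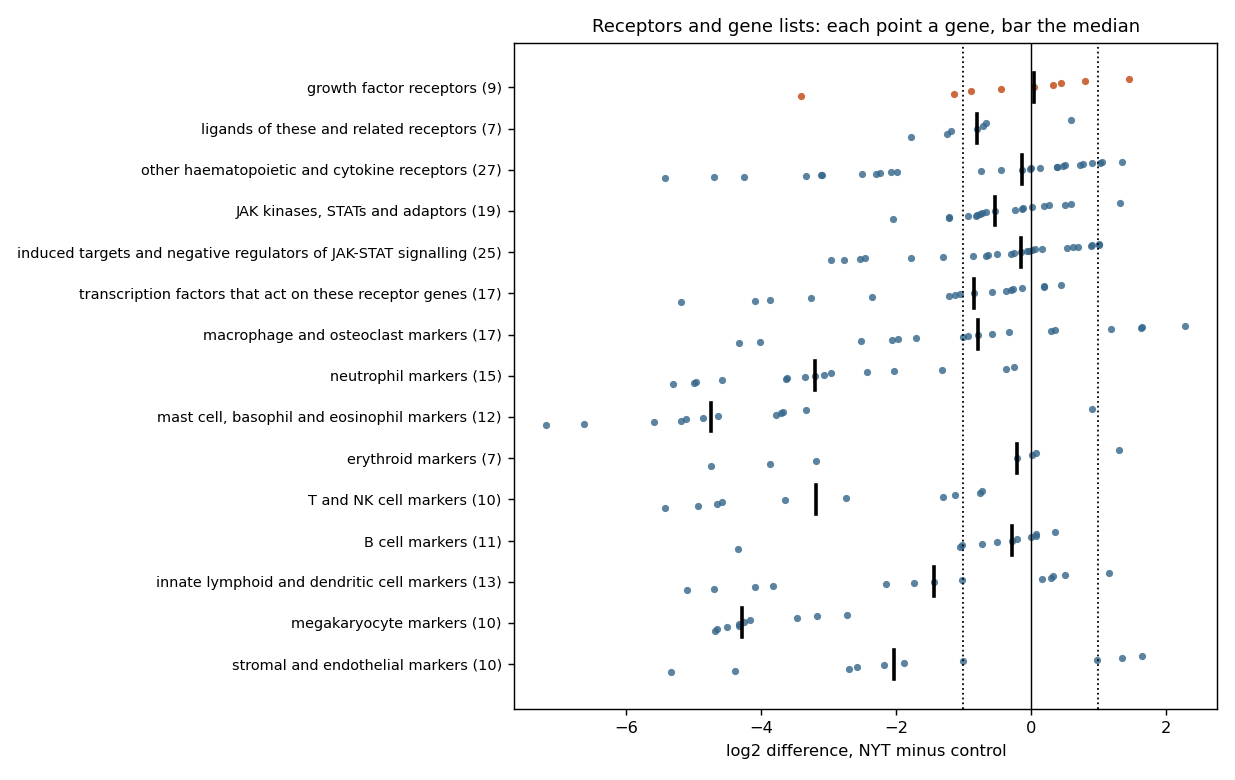
Log2 difference, NYT minus control, of the genes measured on both arrays in each list (number in brackets), with the 9 receptors on top, medians as bars and dotted lines at 2-fold. The receptor median is 0.05, against -3.20 for neutrophil, -4.75 for mast cell, basophil and eosinophil, and -3.19 for T and NK cell markers.

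**Figure D5:**
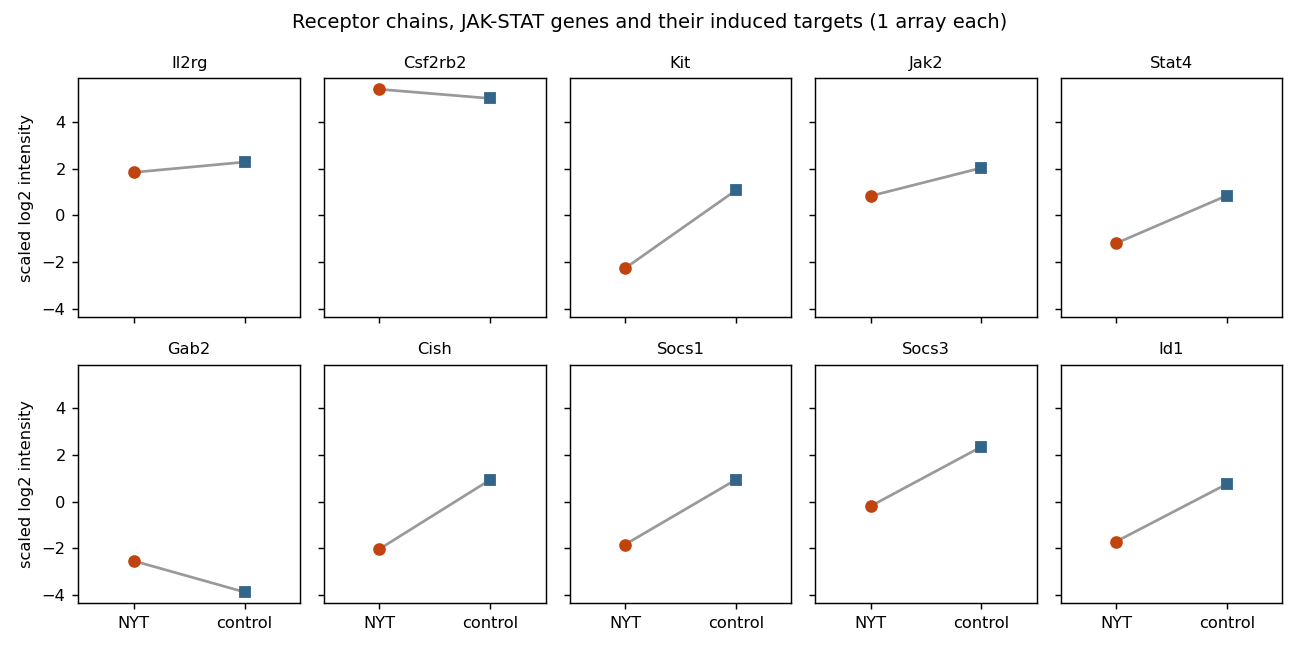
Scaled log2 intensity of partner chains, other receptors, JAK-STAT genes and induced targets on the NYT array (circle) and the control array (square), 1 array each, with no error drawn. Csf2rb2 and Il2rg differ by 0.39 and -0.44, and Cish, Socs1 and Socs3 by -2.97, -2.77 and -2.54.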

How the data were processed

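Total RNA of 2 samples was labelled with Cy3 and hybridised to 1 array each on 1 slide. Spot intensity was deposited by the authors as scanner output. Per the file headers the software was Feature Extraction 10.7.1.1, though the submitters' processing notes name 9.5.1.1, and the labels and the design text name different RNA kits. It was detrended, with surrogate values near background, and not scaled between arrays. The 0 or 1 flags per spot are the authors' deposited software calls. The deposited value table is an intensity too, on a scale its authors do not state.

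Outlier spots were removed (165 on NYT, 258 on control), and no spot was saturated. Log2 intensities were averaged per probe and each array's 75th percentile subtracted. A probe was measured when over 50% of its spots were well above background on both arrays, and a gene was its brightest such probe. Genes seen on 1 array have a bound, taken against the dim probe's signal or, where higher, the lowest signal that passed the background flag on that array. Probes were renamed through RefSeq (26761 by accession, 8215 kept the file's name), and receptor names needed no change. Of 399 probes printed 10 times, 247 were measured, with a median spot SD of 0.053 for a difference, and no receptor was among them. Arrays have no read depth, and precision is limited by their number (1 per group).

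The receptors, 14 gene lists, 12 settings and the rule for named genes were chosen with earlier results of these data known. Named were all receptor probes, the listed ligands, Csf2rb2, Il2rg, Kit and Flt3, and from each list up to 4 genes at least 2-fold apart and up to 2 with the highest bound; some genes that this rule names are not reported here. A search of protein sequence was planned and not run. The counting step was run on simulated data with known changes and noise below the receptors' spot error. That checks the counting alone, not the precision of these arrays. Tools were Python 3.11.15, pandas 2.3.3, statsmodels 0.14.6, R 4.3.3 and limma 3.58.1 (normexp, offset 50).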

Additional observations from a re-analysis of the deposited data

How the results depend on the processing

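With 1 array per group no array could be left out. No paired analysis was possible because the groups hold 1 array apiece. For the changes given here the cause was not tested, apart from filters and thresholds, which by construction admit other numbers of genes. Of 99 receptor values under alternatives, 66 stayed within spot error of the main value. Many of these had no room to move. The settings that changed only detection left every receptor at its main value. Those that changed the choice of probe could alter only Csf1r and Csf2rb. The 66 is thus not a measure of stability. Without scaling the differences were -4.41 for Epor, -2.15 for Il6ra, -1.91 for Csf1r, -1.46 for Csf3r, -0.97 for Csf2ra, -0.70 for Il3ra, -0.58 for Csf2rb, -0.22 for Il6st and 0.43 for Il7r. With spike-in scaling they were -4.57, -2.31, -2.07, -1.62, -1.13, -0.86, -0.74, -0.38 and 0.27 in that order. After loess Csf1r, Csf3r, Csf2ra and Csf2rb stood at -1.51, -0.98, -0.48 and -0.10, with quantile normalization at -1.50, -0.90, -0.39 and -0.02, and in the authors' value table at -1.48, -0.89, -0.38 and -0.03. With normexp Epor stood at -2.98, and by the dimmest probe Csf1r at -0.49 and Csf2rb at 0.84. Receptors at least 2-fold lower numbered 4 without scaling and 5 with spike-in scaling, where none was higher, and 1 lower and 0 higher passed 3-fold. Over all genes, 211 were 2-fold higher and 6190 lower when unscaled. Spike-in scaling gave 166 higher and 7485 lower, keeping dim probes gave 4750 higher and 3414 lower, and the 3-fold threshold gave 507 higher and 1167 lower. Genes higher numbered 932 after loess and 3572 with the other detection flag. Of 154 list medians, 141 stayed within the interval of the main median and 13 did not. That interval came from the ordered values of the list's own genes, so it is wide. For the ligand and erythroid lists, with 7 measured genes each, it spans all of them. The neutrophil median went from -3.20 to -4.21 without scaling and still counted as within. The count is thus not a measure of stability. The median without Csf3r (0.18) was added after seeing the data.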

Other observations

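Grouped by the chain they share, other receptors differed among themselves. The genes in this part were named after their values were seen. Among chains that pair with Il6st (0.80), Il11ra1, for IL-11, stood at 1.02, whereas Osmr, for oncostatin M, stood at -2.30 and Il27ra, for IL-27, at -3.11. Lifr, the leukaemia inhibitory factor receptor, stood at -2.50 by its brightest probe and -0.55 by another, and Cntfr was at background on both arrays. Among chains that pair with Il2rg, Il7r (1.45) was higher, while Il21r stood at -3.09, Il2ra at -2.24 and Il4ra at -1.99 by 1 probe and 0.15 by another. Il2rb, also such a chain, stood at -5.42. Il9r, another, was dim and detected on the NYT array alone, at least 3.08-fold higher as scaled. Crlf2, which pairs with Il7r to bind TSLP, read 22469 on the NYT array and 50081 on the control array (-0.14).

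Among chains that pair with Csf2rb, Il5ra, for IL-5, read 627 on the NYT array and 682 on the control array (0.90), while the eosinophil genes Epx and Prg2 stood at -5.11 and -3.71. The receptors for interferons were all under 2-fold, with Ifngr1 at 0.13, Ifngr2 at 0.47, Ifnar1 at -0.02 and Ifnar2 at 0.38, and so were Il10ra (-0.74) and Il10rb (0.73). Tnfrsf11a, the RANK receptor of osteoclast precursors, read 3736 on the NYT array and 3639 on the control array (1.06). Leaving aside the bound of Il9r, every value above 0 in this part other than those of Il7r, Il11ra1 and Tnfrsf11a was below 0 without scaling. Unscaled, Il11ra1 (0.01) and Tnfrsf11a (0.04) were nearly equal on the arrays.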
